A study of Arabidopsis thaliana with 18 samples.

Results

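The genes described here are the receptors of the plant defence hormone salicylic acid and the small proteins that bind them: NPR1 (AT1G64280), NPR3 (AT5G45110), NPR4 (AT4G19660), NIMIN1 (AT1G02450), NIMIN2 (AT3G25882) and NIMIN3 (AT1G09415). They were taken by locus identifier, as 6 of the 32678 genes in the count table, and not by a rule on their values. Earlier results of these data were known when they were chosen. The polyadenylated RNA came from leaves of ED-P4E1, a line of Arabidopsis thaliana in which PAD4 is driven by an estradiol-inducible promoter and EDS1 by the constitutive 35S promoter. All 6 groups carry both transgenes in the eds1-2 pad4-1 double mutant of ecotype Col-0, so genotype is shared by all groups. Leaves of plants aged 4 weeks, kept at 22 °C in a 10 h photoperiod, received either 10 µM estradiol or a mock solution with 0.2% DMSO, both with 0.01% of the wetting agent silwet, and were collected after 6, 12 or 24 h, with 3 libraries in each group and 18 in all. Whether the estradiol solution held the same share of DMSO is not stated. No estradiol-sprayed line without the transgene was analysed here, so estradiol itself and PAD4 cannot be told apart as sources of a difference.

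As background, EDS1 and PAD4 form a complex that promotes salicylic acid accumulation in leaf immunity. NPR1 is a coactivator that binds salicylic acid and, through TGA transcription factors, turns on defence genes such as PR1, whereas NPR3 and NPR4 also bind salicylic acid and act as corepressors of some of the same genes. NIMIN proteins are small partners of NPR1. NIMIN1 and NIMIN2 bind its C-terminal part and NIMIN3 its N-terminal part, and high levels of NIMIN1 dampen the induction of PR1.

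The libraries held between 19.1 and 48.1 M gene counts, lowest in estradiol 24 h replicate 2. PAD4 was at 15.8 to 33.2 CPM (gene counts relative to library size, scaled between libraries by TMM) in the 9 mock libraries and at 129.8 to 364 CPM in the 9 estradiol libraries. EDS1 was abundant in all libraries, at 1595 to 4858 CPM. The leaf gene RBCS1A, the small subunit of Rubisco, reached 11872 to 28189 CPM, while the root hair regulator RHD6 was at 0 in all 18 libraries and the petal gene AP3 did not exceed 3 counts. Other genes of the root and flower lists were present, the root patterning gene SHR at 5.03 to 12.0 CPM and the floral gene AG at 0.521 to 2.92 CPM. Nothing in the labels says that replicates were separate plants, so all p-values refer to the spread among these libraries, which could be technical. In bulk leaves, fewer cells that express a gene and less of its RNA per cell cannot be told apart.

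In mock leaves at 6 h the members fell into an abundant and a scarce group when set side by side per length of transcript. The mean level was 14.7 ± 0.534 CPM per kb of exon for NPR1, 14.1 ± 0.386 for NIMIN3, 12.2 ± 0.438 for NPR4 and 6.47 ± 0.714 for NPR3 (mean ± SD, n = 3 here and below). NIMIN2 was at 0.897 ± 0.320 and NIMIN1 at 0.336 ± 0.0581 CPM per kb. Each step in this order was wider than the spread of the libraries except the one between NPR1 and NIMIN3, whose ranges overlapped. The exon lengths behind these values were 2614 bases for NPR1, 2659 for NPR3, 2374 for NPR4, 623 for NIMIN1, 683 for NIMIN2 and 655 for NIMIN3, from the TAIR10.1 annotation. The 3 NIMIN genes have 1 exon block each, NPR1 has 4, and NPR3 and NPR4 have 3. In that annotation NPR1 shares 38 bases with the pseudogene AT1G64270 and 214 bases with the long non-coding RNA AT1G08667, both on the opposite strand, so its reads cannot be fully separated from theirs, and the other members overlap no annotated gene. All levels from here on are CPM not divided by length unless stated, and they are compared only within a gene.

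**Figure D1:**
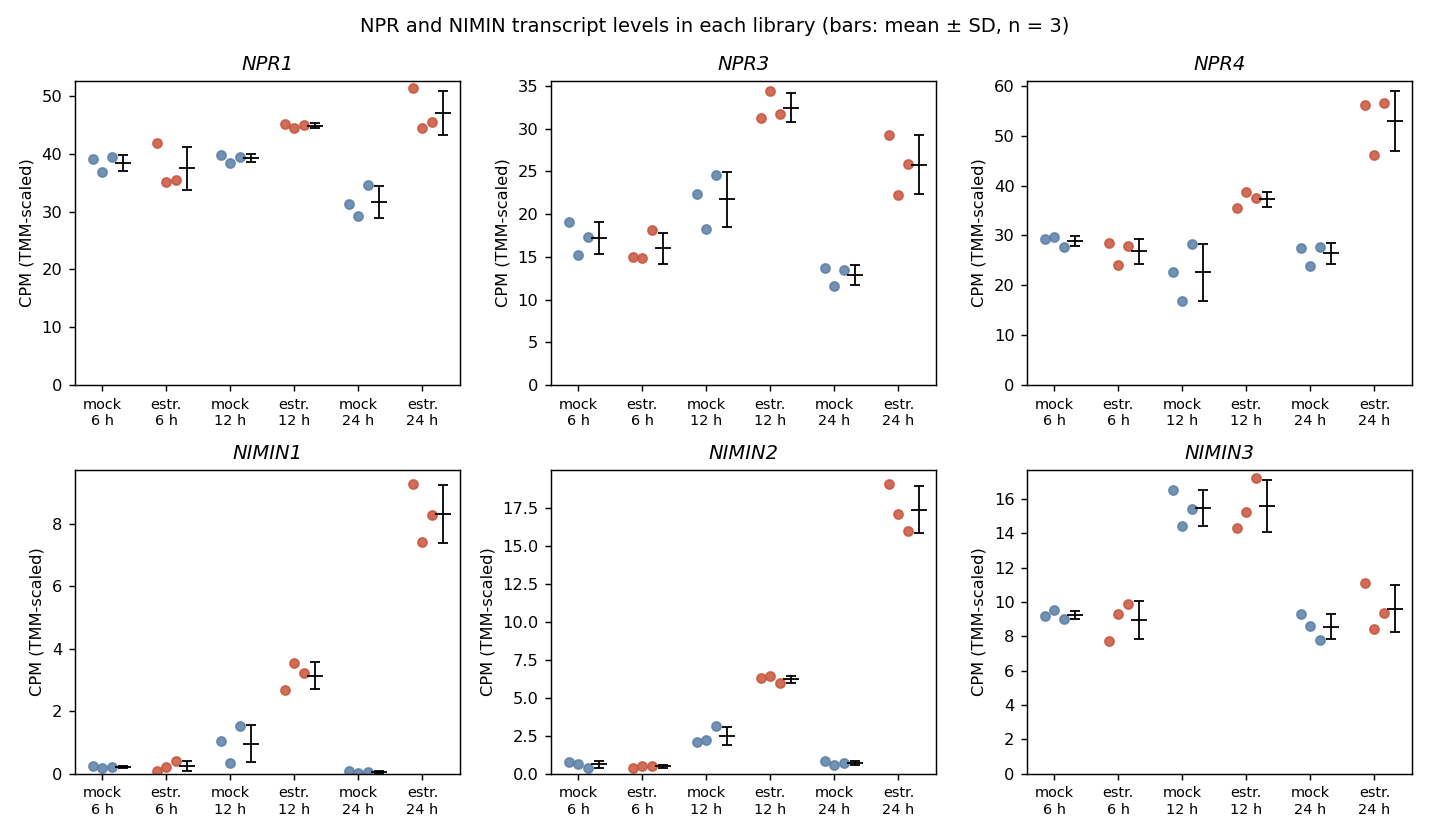
Level of each member in every library, in TMM-scaled CPM on a linear axis that starts at 0 and differs between panels. Points are libraries in the order of replicates 1 to 3, blue for mock and red for estradiol, and bars show the mean ± SD of 3 libraries. Estradiol and mock libraries lie apart for NIMIN1 and NIMIN2 at 12 and 24 h, and overlap for NIMIN3 at every time.

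At 6 h none of the 6 members passed the test of estradiol against mock leaves. NPR1 stood at 41.8, 35.1 and 35.5 CPM in the estradiol libraries (replicates 1 to 3, in this order throughout) and at 39.1, 36.8 and 39.4 CPM in the mock libraries. NPR3 stood at 14.99, 14.8 and 18.1 against 19.0, 15.3 and 17.3 CPM. NPR4 stood at 28.6, 23.98 and 27.9 against 29.2, 29.8 and 27.8 CPM. The treatments overlapped for each of these receptors. NIMIN1 was close to the limit of detection, with 2, 6 and 11 counts in estradiol and 4 to 8 counts in mock libraries. In the 6 h libraries 3 counts correspond to 0.0799 to 0.133 CPM before TMM scaling. NIMIN2 had 8, 15 and 14 against 24, 16 and 13 counts. NIMIN3 was at 7.73, 9.29 and 9.87 against 9.19, 9.51 and 9.01 CPM. These NIMIN values overlapped between treatments as well.

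The adjusted p at 6 h ranged from 0.879 for NIMIN2 to 0.970 for NIMIN3 (edgeR quasi-likelihood test, adjusted by Benjamini-Hochberg over 19227 genes, as throughout). None of the 6 was called, at an adjusted p below 0.05, where 0.0364% of all genes tested were called in either direction. None had an unadjusted p below 0.05, DESeq2 and limma-voom called 0 members, and none had groups that did not overlap, where 13.9% of all genes did. The 95% interval of the fold change ran from 0.872 to 1.09 for NPR1 and from 0.826 to 1.15 for NIMIN3. For NIMIN1 it ran from 0.444 to 3.10, so that a change of that size was not detectable at this depth. Estradiol 6 h replicate 3, which held the highest NPR3, NIMIN1 and NIMIN3 values of its group, also stood apart in 12 jasmonate genes, whose median was 1.42 (log2) above the mock mean against 0.13 and -0.34 in replicates 1 and 2, and the part of those genes in the values here was not tested.

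By 12 h NPR3 and NPR4 were higher in estradiol leaves, while NPR1 did not pass the test. NPR3 reached 31.2, 34.4 and 31.7 CPM in estradiol libraries against 22.4, 18.3 and 24.6 CPM in mock libraries, without overlap. The rise was 1.49-fold (log2 0.57, SE 0.111, adjusted p = 0.00372 by edgeR). NPR4 reached 35.6, 38.7 and 37.4 CPM against 22.6, 16.9 and 28.4 CPM, again without overlap although the mock libraries were spread widely. It rose 1.64-fold (log2 0.71, SE 0.127, edgeR adjusted p = 0.00219). NPR1 was at 45.2, 44.4 and 44.99 CPM against 39.8, 38.4 and 39.5 CPM. These NPR1 libraries did not overlap, but the ratio was only 1.14 (95% interval 1.03 to 1.27) and the edgeR adjusted p was 0.0920. With only the 6 libraries of 12 h in the fit NPR1 passed, at an adjusted p of 0.0186.

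Of the NIMIN genes, both scarce ones rose at 12 h and NIMIN3 stayed within the spread of its libraries. NIMIN1 reached 2.68, 3.53 and 3.21 CPM in estradiol libraries against 1.04, 0.331 and 1.52 CPM in mock libraries, or 359 against 108 counts in all. It was 3.16-fold higher (log2 1.66, SE 0.305, edgeR adjusted p = 0.00255). The mock values were uneven, lowest in replicate 2 and highest in replicate 3, and the groups still did not overlap. NIMIN2 reached 6.30, 6.398 and 5.96 against 2.09, 2.20 and 3.13 CPM and was 2.49-fold higher (log2 1.32, SE 0.160, edgeR adjusted p = 0.000119). NIMIN3 was at 14.3, 15.2 and 17.2 against 16.5, 14.4 and 15.4 CPM. Its groups overlapped, with a log2 fold change of 0.01 (95% interval -0.21 to 0.22, edgeR adjusted p = 0.972).

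In all, 4 of the 6 members were called higher at 12 h, by edgeR, DESeq2 and limma-voom alike, against 4.64% of all genes called higher. For 5 of 6 every estradiol library lay above every mock library, against 14.6% of all genes. The median log2 fold change was 0.64 over the members and -0.01 over all genes tested. In the mock group replicate 3 held the highest NPR3, NPR4, NIMIN1 and NIMIN2 values of its group, so that these members shared the spread of the mock libraries. The same library had the lowest jasmonate median of its group (-0.39 against 0.20 and 0.01 on the log2 scale), whose part was not tested.

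At 24 h all 3 receptors were higher in estradiol leaves, NPR3 and NPR4 by about the same factor and NPR1 by less. NPR1 reached 51.5, 44.5 and 45.5 CPM against 31.4, 29.2 and 34.6 CPM, a 1.49-fold rise (log2 0.58, SE 0.0730, edgeR adjusted p = 1.95e-05). NPR3 reached 29.2, 22.3 and 25.8 CPM against 13.6, 11.5 and 13.4 CPM, a 2.02-fold rise (log2 1.02, SE 0.121, edgeR adjusted p = 9.77e-06). NPR4 reached 56.1, 46.1 and 56.6 CPM against 27.5, 23.9 and 27.8 CPM, also a 2.02-fold rise (log2 1.01, SE 0.129, edgeR adjusted p = 2.10e-05). Groups did not overlap for any receptor. Replicate 2 was the lowest estradiol library for each of them, and it is the library with the fewest counts. Mock 24 h replicate 2 was in turn the lowest mock library for NPR1, NPR3, NPR4, NIMIN1 and NIMIN2. Both stood above the other libraries of their group in the median of the 12 jasmonate genes, at 0.79 against -0.32 and -0.31 (log2 relative to the mock mean) for mock and at -0.13 against -0.56 and -0.63 for estradiol, and the part of these genes in the values was not tested.

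At 24 h NIMIN1 and NIMIN2 were traces in mock leaves. Per length of transcript, mean NIMIN1 in estradiol leaves (13.4 ± 1.48 CPM per kb) lay within the range of the receptors. Mean NIMIN2 (25.4 ± 2.30 CPM per kb) lay above the receptor means, but its libraries overlapped those of NPR4 (22.3 ± 2.49 CPM per kb). NIMIN1 had 231, 122 and 196 counts in estradiol libraries and 2, 1 and 1 counts in mock libraries, or 9.27, 7.42 and 8.27 against 0.0760, 0.0262 and 0.0402 CPM. The ratio of the summed counts, 549 against 4, scaled for depth, was 189 with an exact 95% interval from 73.3 to 695, which covers counting error only. The fitted log2 fold change was 7.41 (SE 0.497, edgeR adjusted p = 9.25e-09), and its size depends on the prior count. NIMIN2 had 475, 281 and 378 counts against 22, 23 and 17, or 19.1, 17.1 and 15.96 against 0.836, 0.602 and 0.683 CPM. It rose 24.8-fold (log2 4.63, SE 0.195, edgeR adjusted p = 2.67e-11).

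NIMIN3, the partner that binds the other end of NPR1, did not pass at 24 h either. It was at 11.1, 8.40 and 9.37 CPM against 9.27, 8.61 and 7.79 CPM, with overlapping groups and a ratio of 1.13 (95% interval 0.955 to 1.34, edgeR adjusted p = 0.321). In all, 5 of the 6 members were called higher at 24 h by edgeR, DESeq2 and limma-voom, against 8.43% of all genes, and for the same 5 all estradiol libraries lay above all mock libraries, against 13.3% of all genes. The median log2 fold change was 1.01 over the members and -0.03 over all genes tested. NIMIN1 passed the filter on low counts, at 0.346 CPM, in 10 of 18 libraries, of which 3 were mock, and the other 5 members passed it in all 18. The estradiol 24 h libraries differed in PAD4 itself, at 364, 244 and 149 CPM in replicates 1 to 3. NPR1, NPR3, NIMIN1, NIMIN2 and NIMIN3, which was not called, were highest in replicate 1 as well, whereas NPR4 was highest in replicate 3. Replicate 3, with the least PAD4, was above replicate 2 for every member but NIMIN2, so only NIMIN2 followed the order of PAD4.

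**Figure D2:**
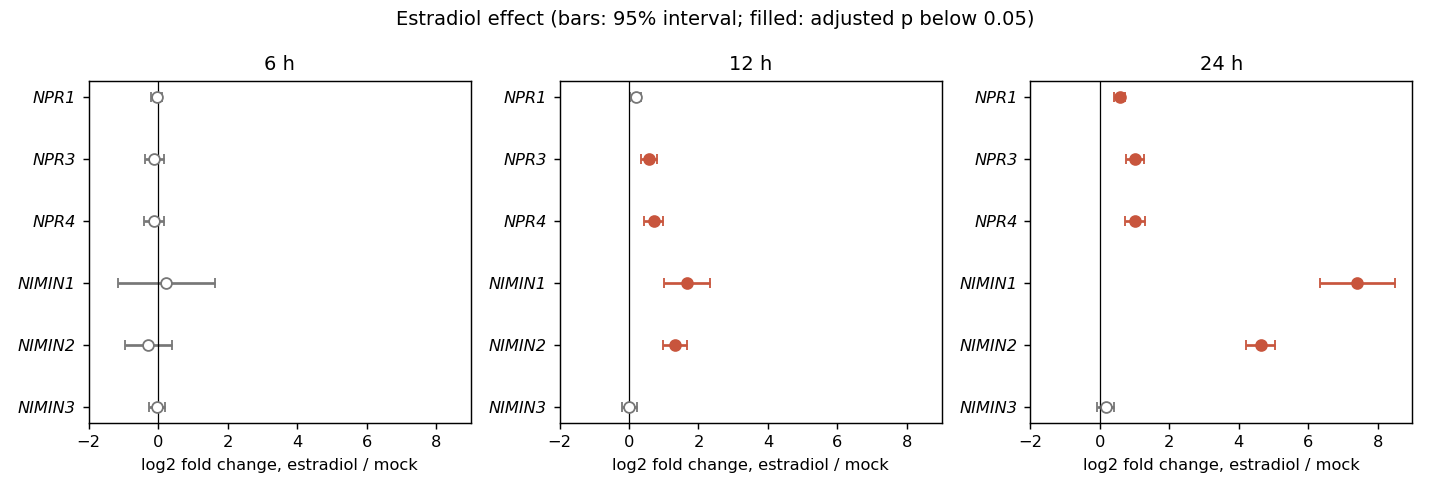
Log2 fold change of each member, estradiol over mock, at 6, 12 and 24 h, filled where the adjusted p was below 0.05. Bars show the 95% interval derived from the F statistic of the edgeR fit. No member is filled at 6 h, 4 are at 12 h and 5 at 24 h. The 24 h value of NIMIN1 rests on 4 mock counts.

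Whether the estradiol effect itself grew between times was tested by the interaction in the same fit, where values are differences of log2 fold changes. From 6 to 12 h the effect grew by 0.82 (SE 0.183) for NPR4 and by 1.61 (SE 0.350) for NIMIN2, with edgeR adjusted p of 0.0459 and 0.0443. These 2 of 6 members compare with 0.312% of all genes called higher, and each call was lost in 9 of the 12 fits without 1 library of 6 or 12 h, at adjusted p up to 0.123 and 0.190. NPR4 held only without replicate 3 of estradiol 6 h, mock 12 h or estradiol 12 h, and NIMIN2 only without replicate 3 of mock 6 h, mock 12 h or estradiol 12 h. NIMIN2 also missed the threshold with limma-voom (adjusted p = 0.106) and with only the libraries of 6 and 12 h in the fit (0.0528). NPR3 missed the threshold at 0.68 (edgeR adjusted p = 0.0640, 0.00912 with DESeq2), as did NPR1 at 0.23 (0.329) and NIMIN1 at 1.43 (0.430).

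From 12 to 24 h the effect on NIMIN1 and NIMIN2 grew further, by 5.75 (SE 0.680) for NIMIN1 and by 3.32 (SE 0.260) for NIMIN2, with edgeR adjusted p of 6.07e-05 and 4.51e-07. The mock level fell over the same interval: mean NIMIN1 went from 0.964 to 0.0474 CPM in mock and from 3.14 to 8.32 CPM in estradiol leaves, and mean NIMIN2 from 2.47 to 0.707 and from 6.22 to 17.4 CPM. Those were the only 2 of 6 members called, against 1.85% of all genes called higher. The receptors' effects differed by 0.38 for NPR1, 0.44 for NPR3 and 0.30 for NPR4 between these times and did not pass (edgeR adjusted p 0.0607, 0.248 and 0.560), although NPR1 passed with DESeq2 (adjusted p = 0.0284) and limma-voom (0.0469). Here too the mock level moved: mean NPR1 went from 39.2 to 31.7 CPM in mock and from 44.9 to 47.1 CPM in estradiol leaves. Mean NPR3 fell in both, from 21.7 to 12.9 and from 32.4 to 25.8 CPM. Mean NPR4 rose in both, from 22.6 to 26.4 and from 37.2 to 53.0 CPM. From 6 to 24 h the effect grew for 5 of 6 members, against 4.03% of all genes. The growth was 0.62 (SE 0.103) for NPR1, 1.12 for both NPR3 (SE 0.171) and NPR4 (SE 0.184), 7.18 (SE 0.989) for NIMIN1 and 4.92 (SE 0.381) for NIMIN2, with edgeR adjusted p from 4.63e-07 to 0.000952. Without estradiol 6 h replicate 3 the NIMIN1 value was 7.79, since that library held 11 of the 19 estradiol counts at 6 h. NIMIN3 did not pass in any of the 3 tests of growth, with edgeR adjusted p of 0.944, 0.747 and 0.512.

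The mock leaves alone also changed with time. From 6 to 12 h NIMIN3 rose 1.67-fold, from 9.24 ± 0.253 to 15.45 ± 1.05 CPM (edgeR adjusted p = 4.90e-06), and NIMIN2 rose 4.15-fold, from 0.612 ± 0.219 to 2.47 ± 0.572 CPM (adjusted p = 2.05e-07). NIMIN1 rose 4.57-fold, from 0.209 ± 0.0362 to 0.964 ± 0.597 CPM (adjusted p = 0.000491). The 3 NIMIN genes therefore all rose between these times without estradiol. NPR3 rose 1.26-fold, from 17.2 ± 1.90 to 21.7 ± 3.21 CPM (adjusted p = 0.0168), and NPR4 fell 1.27-fold, from 28.9 ± 1.04 to 22.65 ± 5.74 CPM (adjusted p = 0.0262), while NPR1 did not pass (adjusted p = 0.743). The ranges of NPR3 and NPR4 at these times overlapped, and their calls were lost without single libraries, NPR3 without mock 6 h replicate 2 or mock 12 h replicate 3 (adjusted p up to 0.1103) and NPR4 without mock 6 h replicate 1 or 2 or mock 12 h replicate 1 or 2 (up to 0.166). Among all genes 33.7% were called higher and 30.6% lower in this comparison, so that 4 of 6 higher and 1 of 6 lower are to be read against a leaf in which most genes moved.

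From 12 to 24 h 5 of the 6 members fell in mock leaves, against 39.1% of all genes called lower. NIMIN1 went from 33, 11 and 64 counts to 2, 1 and 1 counts (edgeR adjusted p = 6.81e-06), and NIMIN2 fell 3.57-fold to 0.707 ± 0.119 CPM (adjusted p = 3.84e-07). NIMIN3 fell 1.80-fold to 8.56 ± 0.738 CPM (adjusted p = 6.32e-07), NPR3 1.70-fold to 12.9 ± 1.15 CPM (adjusted p = 1.17e-05) and NPR1 1.24-fold to 31.7 ± 2.75 CPM (adjusted p = 0.000800). NPR4 was at 26.4 ± 2.14 CPM at 24 h and did not pass (adjusted p = 0.150). Without mock 12 h replicate 3 NPR4 was called higher, at a log2 value of 0.41 and an adjusted p of 0.00417.

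Mock leaves of 24 h and 6 h, compared directly, differed in NPR1 (log2 -0.28, edgeR adjusted p = 0.00237), NPR3 (-0.43, adjusted p = 0.00467) and NIMIN1 (adjusted p = 0.0425), all lower at 24 h, where 31.9% of all genes were called lower. The NIMIN1 call rests on 4 against 19 counts and was lost with limma-voom (adjusted p = 0.0762) and without any mock 6 h replicate or mock 24 h replicate 2 or 3 (up to 0.145). NPR4, NIMIN2 and NIMIN3 did not pass, with adjusted p of 0.377, 0.514 and 0.402. The labels do not give the hour of day of each collection, so time since spraying and hour of day cannot be told apart.

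With levels taken per kb of exon, each member had its own order of groups. NIMIN1 and NIMIN2 were highest in estradiol leaves at 24 h (13.4 ± 1.48 and 25.4 ± 2.30 CPM per kb), then in estradiol leaves at 12 h (5.04 ± 0.689 and 9.11 ± 0.333) and then in mock leaves at 12 h (1.55 ± 0.958 and 3.62 ± 0.837), with no overlap between these neighbours. NPR4 was likewise highest at 24 h under estradiol (22.3 ± 2.49 CPM per kb), ahead of 12 h (15.7 ± 0.665), and its other 4 groups overlapped as neighbours. NPR3 peaked in estradiol leaves at 12 h (12.2 ± 0.645 CPM per kb), above those at 24 h (9.69 ± 1.31). NPR1 had overlapping tops, 18.04 ± 1.45 CPM per kb in estradiol leaves at 24 h and 17.2 ± 0.155 at 12 h. NIMIN3 was highest at 12 h in both treatments, at 23.8 ± 2.28 CPM per kb with estradiol and 23.6 ± 1.61 with mock, and its other groups were between 13.1 and 14.7.

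The makeup of the receptor set and of the NIMIN set shifted in the same leaves. Summed over the 3 receptors, the level was 33.4 ± 1.03 CPM per kb in mock and 31.6 ± 2.31 in estradiol leaves at 6 h, 32.7 ± 3.82 and 45.05 ± 1.11 at 12 h, and 28.1 ± 2.27 and 50.04 ± 4.82 at 24 h. NPR1 made up 43.2 ± 1.23% of the receptor sum in mock leaves at 24 h and 36.1 ± 1.92% in estradiol leaves, while NPR4 made up 39.6 ± 0.678% and 44.6 ± 1.94%. The treatments did not overlap in either share at that time.

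For the NIMIN genes the shift was larger. Their sum was 14.2 ± 1.27 CPM per kb in mock and 53.5 ± 5.42 in estradiol leaves at 24 h, and NIMIN3 made up 92.2 ± 1.11% of it in the former and 27.4 ± 1.42% in the latter. NIMIN1 and NIMIN2 together amounted to 3.95 ± 0.638 per 100 receptor units in mock and 77.7 ± 5.34 in estradiol leaves at 24 h. At 12 h these figures were 15.55 ± 3.32 and 31.4 ± 0.987, and at 6 h 3.69 ± 0.882 and 3.49 ± 1.24. Estradiol and mock libraries overlapped in this figure at 6 h and lay apart at 12 and 24 h. With NIMIN3 included, the figure was 88.1 ± 3.38 in mock and 84.2 ± 4.76 in estradiol leaves at 12 h, where the libraries overlapped. At 24 h it was 50.7 ± 6.50 in mock and 107.0 ± 6.07 in estradiol leaves, without overlap. So at 12 h the NIMIN genes as a whole did not rise relative to the receptors.

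**Figure D3:**
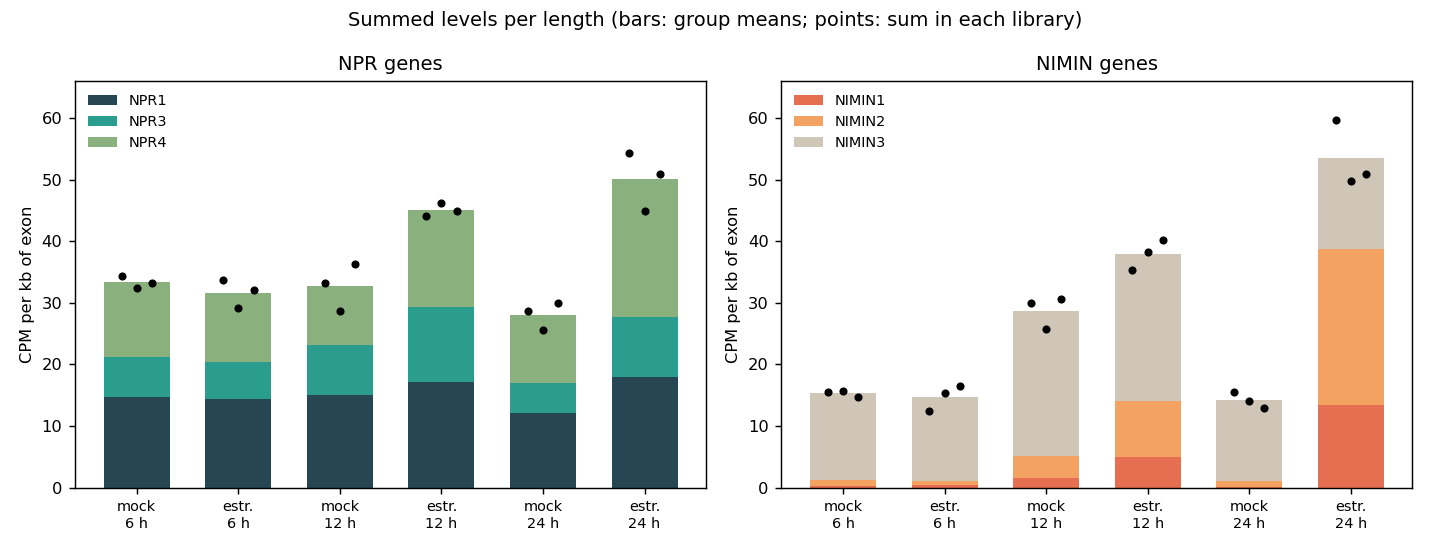
Summed level of the 3 NPR genes (left) and the 3 NIMIN genes (right) in each group, in CPM per kb of exon, with bars stacked from the group means and points for the sum in each library. The NIMIN bar is mostly NIMIN3 in the groups of 6 h and in mock leaves at 24 h, and mostly NIMIN2 and NIMIN1 in estradiol leaves at 24 h.

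Ratios within a library, which do not depend on the scaling between libraries, were compared for 3 pairs at 3 times by an exact two-sided permutation test, in which 3 against 3 libraries cannot give a p below 0.10. The log2 ratio of NPR3 to NPR1 was higher in estradiol than in mock libraries by 0.39 at 12 h and by 0.43 at 24 h, and that of NPR4 to NPR1 by 0.55 and 0.43. In these 4 cases the groups did not overlap and the exact p was the smallest possible, 0.10, or 0.18 adjusted over the 9 tests. At 6 h both ratios overlapped, with differences of -0.07 each. The log2 ratio of NIMIN1 to NIMIN2 was -1.04, -1.20 and -0.95 in estradiol libraries at 24 h against -3.17, -3.97 and -3.54 in mock libraries, and these groups did not overlap (difference 2.50, exact p = 0.10, adjusted 0.18). That difference was 2.17 with 1 added to the counts of both genes in place of 0.5, and 2.96 with nothing added. At 12 h the ratio overlapped between treatments (difference 0.58, exact p = 0.50).

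Genes that work with the receptors were taken from lists of 4 relatives, 9 TGA factors, 10 genes of NPR1 redox state, phosphorylation and turnover, and 13 target genes. At 6 h none of the 30 tested genes in these lists was called by edgeR, where 0.0364% of all genes were called in either direction. An unadjusted p below 0.05 was found for 3 of them (2 targets and 1 of the redox list), where 7.57% of all genes had one. DESeq2 called 1 target higher and limma-voom called none. The 30 include PR1, which had 0 counts in all 6 h libraries and so could not be called at that time. The median log2 fold change at 6 h lay between -0.02 and 0.08 in the 4 lists and was 0.01 over all genes.

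The target genes, listed as NPR1-dependent, were called from 12 h on, and their dependence on NPR1 was not tested here. At 12 h 8 of the 10 tested were called higher and 0 lower, against 4.64% of all genes called higher (7 by DESeq2, 8 by limma-voom, median log2 fold change 1.14). WRKY18 and WRKY58 were not called at that time. At 24 h the 10 tested were called higher, against 8.43% of all genes (median 3.40). These counts include WRKY38 and GRX480, which passed the filter on low counts through their estradiol libraries, so their calls are no support. Apart from them, PR1, PR2, PR5, WRKY53, WRKY54 and WRKY70 were called higher at 12 h. At 24 h the same genes and also WRKY18 and WRKY58 were called higher. PR1 was above the filter on low counts in 9 of 18 libraries, of which 3 were mock. PR2, PR5, WRKY18, WRKY53, WRKY54, WRKY58 and WRKY70 were above it in all 18. PR1, the classical marker of salicylic acid signalling, was at 0 counts in all 6 h libraries. It had 463 against 48 counts at 12 h, 4.10 ± 2.62 against 0.422 ± 0.252 CPM (9.09-fold, edgeR adjusted p = 0.00190). At 24 h it had 2060 against 15 counts, 31.3 ± 3.56 against 0.183 ± 0.237 CPM, a ratio of 189 (exact 95% interval 114 to 338, adjusted p = 3.17e-07), and 1 mock library held 12 of the 15 counts.

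For WRKY38 and GRX480 the counts are given as a description only. WRKY38, a transcription factor that represses basal defence, had 289 against 64 counts at 12 h (4.25-fold). At 24 h it had 215 counts in estradiol and 2 in mock libraries, a ratio of 148 (exact 95% interval 40.4 to 1229). GRX480, a glutaredoxin that interacts with TGA factors, had 118 against 30 counts at 12 h (3.49-fold). It had 147 against 6 counts at 24 h, a ratio of 33.7 (exact 95% interval 15.1 to 93.3). WRKY38 and GRX480 were above the filter in 8 libraries each, of which 2 and 1 were mock, and WRKY59, WRKY62 and WRKY66 did not pass it, with at most 3, 13 and 0 counts in a library.

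The TGA factors, the DNA-binding partners of NPR1, were mostly not called, like most genes tested. Of 7 tested, TGA3 alone was called at 12 h, 1.30-fold higher at 37.3 ± 4.97 against 28.7 ± 0.552 CPM (edgeR adjusted p = 0.0367). At that time 4.64% of all genes were called higher and 5.07% lower. At 24 h edgeR, DESeq2 and limma-voom called 0 TGA factors, where edgeR called 8.43% of all genes higher and 6.54% lower. None of the 7 had an unadjusted p below 0.05 at 24 h, where 28.5% of all genes did. With 7 genes, these counts are not read as a trait of the list. The median over the TGA factors was 0.04 at 12 h and -0.04 at 24 h on the log2 scale.

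Among the 10 genes acting on NPR1 protein, the kinase SNRK2.8 was 1.47-fold lower at 12 h (3.48 ± 0.403 against 5.07 ± 0.572 CPM, edgeR adjusted p = 0.0105), where 5.07% of all genes were called lower. At 24 h the thioredoxin TRXH5, which reduces NPR1, was 2.37-fold higher (23.4 ± 0.661 against 9.83 ± 0.605 CPM, adjusted p = 0.000447). SUMO3, a small modifier that is attached to NPR1, was 2.66-fold higher (1.05 ± 0.406 against 0.408 ± 0.0451 CPM, adjusted p = 0.00185). The more abundant thioredoxin TRXH3 was 1.17-fold lower at 24 h (732.5 ± 76.2 against 859 ± 62.0 CPM, adjusted p = 0.0381), where 6.54% of all genes were called lower. The other 7, including the cullins CUL3A and CUL3B, were not called at 24 h. In all, 2 of these 10 were called higher and 1 lower at 24 h, against 8.43% and 6.54% of all genes. At 12 h 0 were called higher and 1 lower, against 4.64% and 5.07% of all genes, which is near those shares for a list of 10. The list median was 0.02 at 12 h and -0.02 at 24 h on the log2 scale.

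Of the relatives, 3 of 4 were tested, and AT4G26120, an ankyrin-repeat protein with a BTB/POZ domain like the receptors, was the 1 called, against 4.64% of all genes called higher at 12 h and 8.43% at 24 h. It was 1.80-fold higher at 12 h, at 2.48 ± 0.848 against 1.401 ± 0.187 CPM (edgeR adjusted p = 0.0340), and 2.70-fold higher at 24 h, at 4.02 ± 0.636 against 1.505 ± 0.318 CPM (adjusted p = 0.000559). BOP2, a leaf-patterning relative, and AT4G01895, annotated as related to NIMIN1, did not pass at 12 h (adjusted p 0.245 and 0.0816) or 24 h (0.0557 and 0.545).

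**Figure D4:**
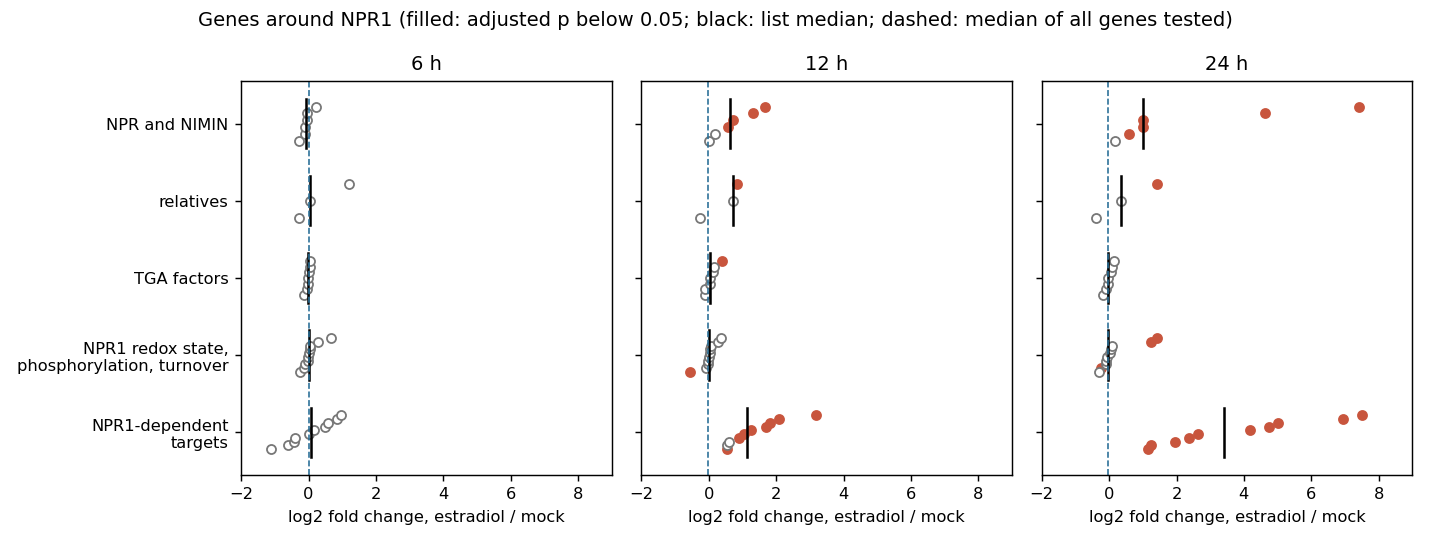
Log2 fold change of every tested gene in the member list and the 4 related lists, estradiol over mock, at 6, 12 and 24 h, with 1 point per gene, filled where the edgeR adjusted p was below 0.05, a black line at the list's median and a dashed line at the median of all genes tested. The target genes lie to the right at 24 h, with a median of 3.40, while the TGA factors stay around 0.

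Across the 18 libraries the members followed each other to different degrees, given here as correlations of log2 CPM that mix treatment, time and depth. By Pearson r the closest pair was NIMIN1 and NIMIN2 (r = 0.945, rho = 0.814), and by Spearman rho it was NPR3 and NIMIN1 (r = 0.900, rho = 0.911). NPR4 and NIMIN3 were the least alike (-0.06 and 0.08). With group means removed, r was 0.794 for NPR3 and NIMIN1 and 0.434 for NIMIN1 and NIMIN2.

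The 3 genes most like each member were sought by Pearson r among 7134 other genes with a symbol (7135 for NIMIN1) and a mean log2 CPM of at least 1. For NPR1 they were NDR1 (r = 0.949), which is needed for resistance through coiled-coil receptors, SIB1 (0.909) and RK3 (0.899). For NPR3 they were the receptor-like kinases CRK2 (0.971) and WAK2 (0.956) and the protein disulfide isomerase PDIL1-3 (0.952). For NPR4 the likeness was weaker, with a lectin receptor kinase listed as RLK (AT2G37710, r = 0.888, rho = 0.624), WRKY46 (0.866) and PLL4 (0.866).

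For NIMIN1 the closest were EP1 (AT4G23170, r = 0.960), NUDT6 (0.949) and RLP23 (0.947), and for NIMIN2 RLK1 (0.976), RLP23 (0.966) and NUDT5 (0.961). RLP23, a receptor-like protein that senses microbial peptides, was thus near both. For NIMIN3 they were alpha-ADR (0.970), an adaptin of vesicle coats, the histone methyltransferase gene SUVH4 (0.969) and EMB2813 (0.967). Since these genes were chosen on the same libraries, their own responses are not given as results.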

How the data were processed

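The deposited table holds whole-number read counts for each gene, without normalization. TopHat2 2.0.10, HTSeq (version not stated), FastQC 0.11.2 and genome build TAIR10 are named in the submitters' processing notes. The kit named in the labels does not mark strand; not given in the sources used here were counting mode, strand setting and annotation release. Classes of reads assigned to no gene, 5.76 to 6.71% per library, were left out. Groups and replicate numbers came from the sample titles. No pair of replicates agreed within sampling noise.

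The counts were tested with edgeR 4.0.16 (R 4.3.3; quasi-likelihood, TMM, 6 group means over 18 libraries, 12 residual degrees of freedom) after filterByExpr (minimum count 10, minimum total 15), which kept 19227 of 32678 genes and all 6 members. P-values were adjusted by Benjamini-Hochberg over all genes tested and called below 0.05. Fold changes come from this fit, CPM are TMM-scaled, and ratios within a library used counts plus 0.5. Exact intervals cover counting error only. Alternatives were DESeq2 1.42.0, limma-voom (limma 3.58.1), other scalings and filters, a replicate block, only the libraries of a contrast, and each library left out. The code was tested on simulated counts.

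Members, lists and tests were chosen with earlier results of these data known. The named genes are the 6 members, PAD4 and EDS1, up to 3 called genes per list with the largest change at 12 h and at 24 h, and the 3 genes most like each member; others named were chosen after their values were seen. Gene names and exon lengths come from TAIR10.1 (31912 loci matched), and as the submitters name TAIR10, no coordinates or sequences are given.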

Additional observations from a re-analysis of the deposited data

Results flagged for a closer look

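The estradiol effect differed between times, by the interaction test in the edgeR fit (adjusted over all genes), for 9 combinations of member and times, in units of log2 fold change. From 6 to 12 h the effect was larger by 0.82 for NPR4 and by 1.61 for NIMIN2. These calls were marginal (edgeR adjusted p = 0.0459 and 0.0443), and each was lost in most fits without 1 library of 6 or 12 h. From 12 to 24 h it was larger by 5.75 for NIMIN1 and by 3.32 for NIMIN2. From 6 to 24 h it was larger by 0.62 for NPR1, 1.12 for NPR3, 1.12 for NPR4, 7.18 for NIMIN1 and 4.92 for NIMIN2. In groups of 3 libraries no test for a single deviating library was made.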

How the results depend on the processing

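Of 251 values for a member under an alternative, estradiol against mock, 246 kept their direction and side of the threshold, and the 4 calls at 12 h and 5 at 24 h held in every alternative that gave a value. Low counts limit NIMIN1 most: with only the libraries of a contrast in the fit it gave no value at 6 h or for mock 24 h against 6 h. Directions that turned belong to differences that did not pass. NPR1 in mock leaves, 12 h against 6 h, was -0.0124 with DESeq2 size factors, -0.0126 with DESeq2 and -8.2e-06 to 0.0472 with 1 library left out. With 1 library left out, NIMIN2 in mock leaves, 24 h against 6 h, ranged from -0.0855 to 0.483, NIMIN1 at 6 h from -0.379 to 0.546, NIMIN3 at 6 h from -0.109 to 0.0537, NIMIN3 at 12 h from -0.0666 to 0.0709 and its change from 6 to 12 h from -0.0444 to 0.118. The number of members called for the change from 6 to 12 h was 3 with upper-quartile scaling, without the filter and with DESeq2, where NPR3 was added, 1 with limma-voom and 0 to 2 with 1 library left out, and for mock leaves, 12 h against 6 h, 3 to 5, lowest without mock 6 h replicate 2. The log2 ratio of NIMIN1 to NIMIN2 at 24 h differed by 2.17 with a pseudocount of 1 and by 2.96 with 0. Over the whole table, calls at 6 h were 5 higher and 2 lower, but 24 and 16 with DESeq2, 1 higher with limma-voom or only the 6 h libraries, and 2 to 4 higher and 1 to 5 lower with 1 library left out. With 1 library left out, the 892 higher and 975 lower at 12 h came down to 270 and 281 (without estradiol 12 h replicate 1), and the 1257 lower at 24 h to 551 (without mock 24 h replicate 2; 459 with only the 24 h libraries). For the change from 6 to 12 h, 60 higher and 92 lower became 170 and 236 with DESeq2, 144 higher with only its libraries, and 1 to 113 and 6 to 176 with 1 library left out. From 12 to 24 h, 356 higher came down to 204 and 51 lower ranged from 26 to 82 (88 with DESeq2, 32 with only its libraries), and from 6 to 24 h 385 lower came down to 178 (201 with only its libraries). The cause of these moves was not tested.

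Whether replicate numbers pair the libraries could not be decided, since each group holds only 3 libraries. Same-numbered estradiol and mock libraries correlated between -0.16 and 0.20 after removal of group means. Some estradiol libraries, but not all, correlated best with the mock library of their own number. With the replicate block 2 members were again called for the change from 6 to 12 h, but NIMIN2 (1.60, edgeR adjusted p = 0.0647) was replaced by NPR3 (0.69, adjusted p = 0.0361), and NPR1 passed for the change from 12 to 24 h (0.38, adjusted p = 0.0383).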
